A study of Mus musculus with 16 samples.

Results

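The unfolded protein response and integrated stress response set comprised 35 genes, listed by name as endoplasmic reticulum (ER) chaperones, disulfide enzymes, ER-associated degradation (ERAD) genes, stress sensors, transcription factors and their targets. All 35 were found by symbol among 54838 Ensembl gene IDs. They were followed in whole liver of male wild type C57BL/6J mice. CCl4 livers (n = 3) were taken 3 days after an intraperitoneal injection, at 2 µl per g, of a 1:1 mixture of carbon tetrachloride and olive oil. Olive oil livers (n = 3) were taken 3 days after the same volume of olive oil alone. PH day 3 livers (n = 5) were taken 3 days after partial hepatectomy, the surgical removal of part of the liver. PH day 0 livers (n = 5) were the pieces removed at surgery and serve as the baseline. The labels give no ages, and they do not say that each library is a separate animal, so p-values may reflect technical spread between libraries alone. The challenges came from separately named experiments, so challenge and experiment cannot be told apart, and the library codes in the labels also follow the groups. In bulk tissue, fewer cells of a type and less RNA per cell cannot be told apart.

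The unfolded protein response senses misfolded protein in the ER through IRE1 (encoded by Ern1), ATF6 and PERK (encoded by Eif2ak3). IRE1 splices Xbp1 mRNA, ATF6 is cut in the Golgi to release a transcription factor, and PERK phosphorylates eIF2 alpha, which lowers general translation and favours translation of Atf4. The integrated stress response shares that last step with kinases that sense amino acid shortage, heme shortage and double-stranded RNA. Hepatocytes secrete most plasma proteins and carry a large ER. Counts per gene do not show Xbp1 splicing, ATF6 cleavage, eIF2 alpha phosphorylation or Atf4 translation.

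Promoters of ER chaperone genes are known to carry the ER stress response element (ERSE), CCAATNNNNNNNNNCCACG, to which ATF6 binds together with NF-Y. RefSeq promoters (GRCm38.p6, 250 bases before to 50 after the annotated start) were held for 31 of the 35 members; Hyou1, Manf, Derl1 and Atf6 had no entry. Searched on both strands, ERSE letters were present in 10 of these 31 promoters, against 0.119% of all 32851 promoters of the same length. The shorter ERSE-II, ATTGGNCCACG, was present in Dnajb11 and Herpud1, against 0.0365% of all promoters. The core of the C/EBP-ATF response element (CARE), TGATGCAA, which ATF4 and C/EBP factors are known to bind, was present in Herpud1, Atf3 and Chac1, against 0.895% of all promoters. The core of the unfolded protein response element, TGACGTGG, was in 0 of the 31 windows, against 0.676% of all promoters. No match overlapped a match to another of these motifs. The windows below are shown because their genes are described one by one later: 5 ERSE genes that rose in a comparison, 1 that did not pass either test, 2 that fell, and the CARE or ERSE-II genes whose levels fell or rose most. They are read 5′ to 3′ in the direction of the gene, with the motif in capitals.
Hspa5: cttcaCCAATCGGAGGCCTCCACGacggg
Hsp90b1: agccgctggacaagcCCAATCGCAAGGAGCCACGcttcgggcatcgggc
Creld2: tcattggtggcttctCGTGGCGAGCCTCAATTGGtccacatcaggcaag
Pdia6: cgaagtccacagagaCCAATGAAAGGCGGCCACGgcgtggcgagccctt
Syvn1: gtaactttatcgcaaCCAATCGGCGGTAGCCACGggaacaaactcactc
Calr: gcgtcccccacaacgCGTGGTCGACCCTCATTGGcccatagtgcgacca
Derl3: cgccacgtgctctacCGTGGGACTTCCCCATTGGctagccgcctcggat
Ero1lb: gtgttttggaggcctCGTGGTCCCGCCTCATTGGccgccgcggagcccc
Herpud1 ERSE-II: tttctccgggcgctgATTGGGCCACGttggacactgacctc
Herpud1 CARE: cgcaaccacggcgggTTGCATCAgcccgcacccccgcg
Atf3 CARE: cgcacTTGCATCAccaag
Chac1 CARE: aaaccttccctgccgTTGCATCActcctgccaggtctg
The Hspa5 window lies at chr2:34772020-34772048 on the plus strand, and its ERSE spans positions -65 to -47 relative to the RefSeq start. Those of Hsp90b1 (chr10:86705623-86705671) and Calr (chr8:84847060-84847108) are on the minus strand. Hsp90b1 held a second ERSE at positions -107 to -89. The remaining plus strand ERSE windows are Creld2 at chr15:88819505-88819553, Pdia6 at chr12:17266476-17266524, Syvn1 at chr19:6046517-6046565, Derl3 at chr10:75893227-75893275 and Ero1lb at chr13:12565667-12565715. Herpud1 has its ERSE-II window at chr8:94386362-94386402 and its CARE window at chr8:94386302-94386339, both on the plus strand. The Atf3 window is chr1:191183431-191183448 on the minus strand, and the Chac1 window is chr2:119351034-119351071 on the plus strand. Canx and Dnajc3 also held an ERSE. A match of letters is not a measured binding site.

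Libraries held 2795909 to 8647503 counted reads. Levels are given as CPM, reads of a gene scaled to a common library total, and 3 reads correspond to 0.372 to 1.02 CPM. CCl4 replicate 1 stood apart from the other two CCl4 libraries: the chi-square per degree of freedom of gene counts was 71.8 and 72.3 against them, and 8.97 between them. Its TMM scaling factor was 0.986, against 1.30 and 1.29 in the other two CCl4 libraries and 0.859 to 0.928 in olive oil. Results after CCl4 are therefore given without it too where leaving it out ends or adds a call of a member, or moves a count of calls by over 1.5 times. Scaling moved with the groups: with library size alone, the median log2 fold change of all genes after CCl4 was 0.46 in place of 0.01, and 2973 genes were called higher and 423 lower in place of 1279 and 1320. At PH day 3 the same change moved the median to 0.13 and the calls to 1617 higher and 432 lower, in place of 1026 and 845. Fold changes below are on the TMM scale.

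After CCl4, 9 of the 35 members rose and 4 fell (edgeR quasi-likelihood test, with a call at a Benjamini-Hochberg adjusted p below 0.05), where 11.3% of the 11337 genes tested were called higher and 11.6% lower. These counts include Atf3, which rose and entered the test only through the CCl4 libraries. They also include Chac1, which fell and entered only through the olive oil libraries. The median log2 fold change was 0.30 over the members and 0.01 over all genes. In PH day 3 livers 10 of the 33 members tested rose and 2 fell, where 9.73% of 10546 genes were called higher and 8.01% lower. The median was 0.22 over these members and -0.01 over all genes. Atf3 and Derl3 had too few reads for the PH test. The share of members called higher was above the background in both comparisons, and the share called lower was near it. Without CCl4 replicate 1, 12 members rose and 4 fell, where 14.3% of genes were called higher and 15.6% lower. Fewer members rose, and fewer of all genes were called higher, in some other fits with 1 library left out. After CCl4, 4 rose without olive oil replicate 3, 5 without olive oil replicate 1, 6 without CCl4 replicate 2 and 7 without CCl4 replicate 3. Without PH day 0 replicate 12, 13 of the members rose at PH day 3 and 2 fell, where 9.47% of 10720 genes were called higher and 7.42% lower. These 13 included 8 of the 10 called with all libraries, and Atf3, which entered that fit only through PH day 3 libraries. Leaving out PH day 3 replicate 12 gave 7 risen and 2 fallen, where 929 of 10622 genes were called higher and 716 lower.

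Hspa5, Pdia4, Hyou1, Manf and Ero1l rose in both comparisons, where 4.83% of the 10468 genes tested in both did so. 0 members fell in both, 0 were called in opposite directions, 15 were called in 1 comparison and 15 in neither. Tested directly, the responses to CCl4 and to hepatectomy differed for 0 of 35 members, while 1.47% of 11868 genes responded higher and 3.87% lower after CCl4 than after hepatectomy. At an unadjusted p under 0.05, a threshold at which all genes were not counted, the same test gave 6 members, and DESeq2 called 0. A member called in 1 comparison only is thus not shown to respond differently in the other.

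**Figure D1:**
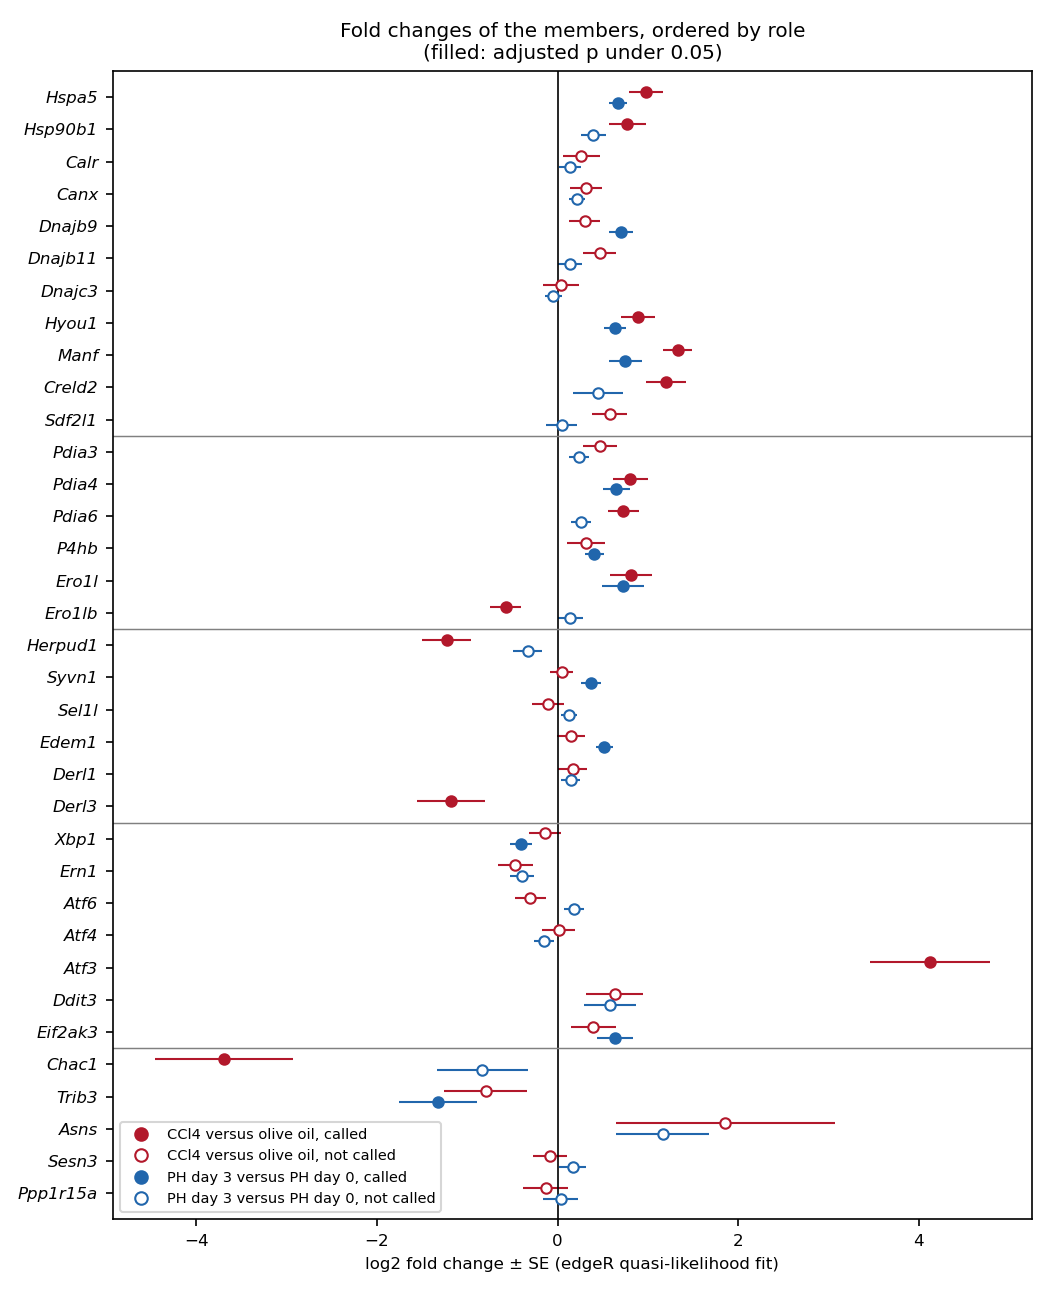
Log2 fold change (x axis, edgeR fit, whiskers show the SE) of each member (y axis, ordered by role) for CCl4 versus olive oil (red) and PH day 3 versus PH day 0 (blue); filled points passed adjusted p under 0.05. Chaperones and disulfide enzymes lie mostly right of 0, while ERAD genes, sensors and effectors lie on both sides, from Chac1 at -3.70 to Atf3 at 4.12 after CCl4.

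Lumenal chaperones fold proteins inside the ER. All 11 had a log2 fold change above 0 after CCl4 and 5 passed the test: Hspa5, Hsp90b1, Hyou1, Manf and Creld2. After hepatectomy 10 of 11 were above 0 and 4 passed: Hspa5, Dnajb9, Hyou1 and Manf. The median log2 fold change of the 11 was 0.58 after CCl4 and 0.39 at PH day 3. Under other settings the calls after CCl4 became 3 higher and 0 lower without olive oil replicate 3, and 10 higher and 0 lower with library size scaling. Without CCl4 replicate 1 they were 7 and 0. On PH day 3 they became 7 higher and 0 lower without PH day 0 replicate 12.

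Hspa5 encodes BiP, the main ER Hsp70, which also holds the stress sensors inactive. It was at 868, 915 and 864 CPM in the CCl4 livers, against 384, 499 and 437 CPM in the olive oil livers. For PH day 3 it was at 1056, 1008, 932, 1097 and 1053 CPM, against 769, 689, 549, 610.3 and 674 CPM at PH day 0. In both experiments every challenged library was above every control. The log2 fold change was 0.98 ± 0.19 after CCl4 (SE, n = 3 and 3, edgeR adjusted p = 0.0051) and 0.67 ± 0.10 at PH day 3 (SE, n = 5 and 5, adjusted p = 2.16e-05). Both calls held without any 1 library. The difference of the responses was 0.34 ± 0.18 on the log2 scale (adjusted p = 0.308).

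Manf encodes a secreted ER stress-inducible factor that binds BiP. It had 119, 114 and 96.3 CPM in CCl4 livers, against 36.6, 50.5 and 41.5 CPM in olive oil livers, and the groups did not overlap. The PH day 3 livers had 132, 141, 115, 136 and 123 CPM, against 120.0, 82.5, 52.7, 64.0 and 69.5 CPM in the PH day 0 livers, where replicate 12 overlapped the day 3 range. Its log2 fold change was 1.33 ± 0.16 after CCl4, the largest of the chaperones (edgeR adjusted p = 0.000426), and 0.75 ± 0.18 at PH day 3 (adjusted p = 0.0132). Neither call was lost when any 1 library was left out.

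Hyou1 encodes GRP170, an Hsp110-like chaperone that exchanges nucleotide on BiP. Its levels were 164, 193 and 173 CPM after CCl4, against 74.7, 119 and 86.7 CPM after olive oil. After partial hepatectomy they were 279, 274, 257, 265 and 281 CPM, against 244, 196, 138, 149 and 157 CPM at PH day 0. The groups did not overlap in either experiment, and the PH day 3 libraries lay close together. Its fitted log2 fold change was 0.89 ± 0.19 after CCl4 (edgeR adjusted p = 0.00736) and 0.64 ± 0.12 at PH day 3 (adjusted p = 0.00086). The adjusted p after CCl4 was 0.0559 without olive oil replicate 3.

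Creld2, an ER stress-inducible protein of the secretory pathway, had 51.4, 34.6 and 38.1 CPM in CCl4 livers, against 13.5, 20.9 and 18.4 CPM in olive oil livers. This gave a log2 fold change of 1.20 ± 0.22 (edgeR adjusted p = 0.00355), with no overlap between the groups. 3 days after hepatectomy it ranged from 38.4 to 68.6 CPM, against 24.0 to 66.4 CPM at PH day 0, and the ranges overlapped (0.44 ± 0.28, adjusted p = 0.336). Without PH day 0 replicate 12 that adjusted p was 0.0158.

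Hsp90b1 encodes GRP94, the ER Hsp90. It was at 864, 1196 and 1171 CPM after CCl4, against 592, 682 and 581 CPM after olive oil. CCl4 replicate 1 was the lowest of the CCl4 libraries and still above all olive oil libraries. Its log2 fold change was 0.77 ± 0.21 (edgeR adjusted p = 0.0238), but the adjusted p was 0.0877 without CCl4 replicate 2, 0.0732 without CCl4 replicate 3, 0.0998 without olive oil replicate 1, 0.0661 without olive oil replicate 2 and 0.119 without olive oil replicate 3. Without CCl4 replicate 1 it was 0.00028. 3 days after PH Hsp90b1 had 921 to 1327 CPM, against 677 to 1166 CPM at PH day 0 (log2 fold change 0.39 ± 0.14, adjusted p = 0.0587). It passed without PH day 0 replicate 12 (0.00878), PH day 0 replicate 16 (0.0405) or PH day 3 replicate 13 (0.0209). It also passed with library size scaling (0.00202), with no low-count filter (0.00159) and in DESeq2 (0.0449). Of its exon bases, 5.38% are shared with another gene.

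Dnajb9 encodes ERdj4, a BiP co-chaperone that is known as an XBP1 target. PH day 3 livers had 54.6, 51.9, 43.5, 40.7 and 54.0 CPM, against 28.7, 30.9, 30.4, 25.5 and 37.9 CPM in PH day 0 livers, without overlap. The fitted log2 fold change was 0.70 ± 0.13 (edgeR adjusted p = 0.000388). After CCl4 it had 33.5 to 47.3 CPM, against 28.9 to 34.1 CPM after olive oil (0.30 ± 0.17, adjusted p = 0.24). The difference between its responses was -0.37 ± 0.21 (adjusted p = 0.356).

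Calr, Canx, Dnajb11, Dnajc3 and Sdf2l1 did not pass in either comparison. Calreticulin and calnexin, encoded by Calr and Canx, are the lectin chaperones of glycoproteins. Their log2 fold changes were 0.26 ± 0.20 and 0.31 ± 0.18 after CCl4 and 0.14 ± 0.12 and 0.21 ± 0.09 at PH day 3. Dnajb11, which encodes the ERdj3 co-chaperone, had 0.47 ± 0.18 after CCl4 and 0.14 ± 0.13 at PH day 3. Dnajc3, which encodes the ERdj6 co-chaperone, had 0.04 ± 0.20 after CCl4 and -0.05 ± 0.10 at PH day 3. Sdf2l1, a component of BiP complexes, had 0.58 ± 0.19 after CCl4 with an edgeR adjusted p of 0.0553, and 0.04 ± 0.17 at PH day 3. With CCl4 replicate 1 left out, Canx (adjusted p = 0.0194) and Sdf2l1 (0.0456) passed after CCl4. Sdf2l1 and Dnajb11 also passed without olive oil replicate 2, at adjusted p of 0.0315 and 0.0467, and Canx passed at PH day 3 without PH day 0 replicate 12 (0.0398).

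Chaperone levels also varied among control livers. PH day 0 replicate 12, the deepest library of the 16, was the highest of the 5 PH day 0 livers for 10 of 11 chaperones and 4 of 6 disulfide enzymes. Olive oil replicate 2 was the highest of its group for 10 of 11 chaperones. Among PH day 3 livers no library was highest for more than 4 of 11. The share of all genes highest in each library was not counted, so these counts are not shown to be particular to chaperones.

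**Figure D2:**
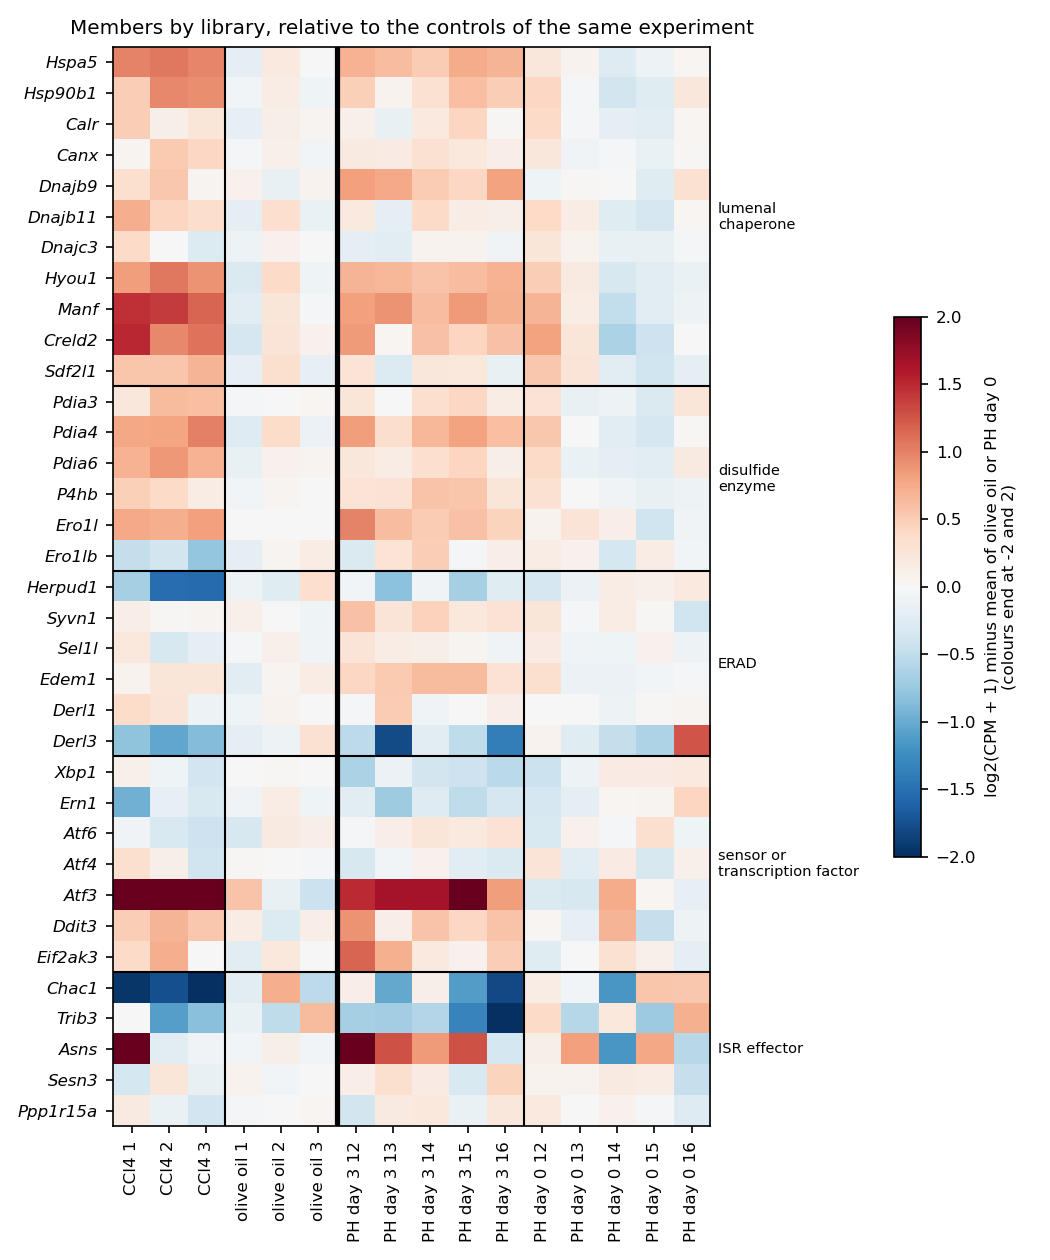
Colour gives log2(CPM + 1) of each member (rows, by role) in each library (columns) minus the mean of olive oil or PH day 0, the controls of the same experiment; colours end at -2 and 2. Hspa5, Hyou1 and Manf are red in every CCl4 and PH day 3 library, PH day 0 replicate 12 is the highest of its group for 10 of 11 chaperones, and Asns is dark red in CCl4 replicate 1 among the CCl4 libraries. The share of all genes highest in PH day 0 replicate 12 was not counted.

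Disulfide enzymes oxidise and rearrange cysteines of proteins in the ER. Of 6, Pdia4, Pdia6 and Ero1l rose and Ero1lb fell after CCl4, and Pdia4, P4hb and Ero1l rose at PH day 3. Under other settings the calls after CCl4 became 0 higher and 0 lower without olive oil replicate 3, 0 higher and 1 lower without olive oil replicate 1, 1 higher and 0 lower without CCl4 replicate 2, 2 higher and 0 lower without CCl4 replicate 3, or olive oil replicate 2, 4 higher and 0 lower in DESeq2, and 5 higher and 0 lower with library size scaling. Without CCl4 replicate 1 they were 4 and 1. At PH day 3 they became 5 higher and 0 lower with library size scaling.

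Pdia4, which encodes ERp72, had 241, 243 and 284 CPM in CCl4 livers, against 118, 183 and 130.0 CPM in olive oil livers. In PH day 3 livers it had 359.8, 257, 320.3, 355 and 307 CPM, against 293, 202, 173, 159.7 and 205 CPM at PH day 0. The groups were apart after CCl4, and at PH day 3 the lowest library, replicate 13, lay below PH day 0 replicate 12. Its fitted log2 fold change was 0.81 ± 0.19 after CCl4 (edgeR adjusted p = 0.0137) and 0.65 ± 0.15 at PH day 3 (adjusted p = 0.00568). After CCl4 the adjusted p was 0.078 without olive oil replicate 1 and 0.085 without olive oil replicate 3.

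Pdia6, which encodes the P5 isomerase that also binds IRE1, had 411, 464 and 415 CPM in CCl4 livers, against 231, 271 and 263 CPM in olive oil livers. The groups did not overlap. The log2 fold change was 0.73 ± 0.17 (edgeR adjusted p = 0.012), and the adjusted p was 0.0512 without CCl4 replicate 2, 0.0707 without olive oil replicate 1 and 0.061 without olive oil replicate 3. After hepatectomy it had 348 to 432 CPM, against 274 to 421 CPM at PH day 0 (0.26 ± 0.11, adjusted p = 0.113), and it passed without PH day 0 replicate 12 (0.0174).

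P4hb encodes protein disulfide isomerase, which is also the beta subunit of prolyl 4-hydroxylase. It had 1681, 1708, 2072, 2048 and 1648 CPM at PH day 3, against 1728, 1400.3, 1329.6, 1261 and 1303 CPM at PH day 0, and the groups overlapped only through PH day 0 replicate 12. This gave a log2 fold change of 0.41 ± 0.11 (edgeR adjusted p = 0.00883). After CCl4 it had 2018, 1878 and 1611 CPM, against 1393, 1506 and 1447 CPM after olive oil, with no overlap (0.32 ± 0.21, adjusted p = 0.313). Pdia3, which encodes the ERp57 isomerase that works with calnexin and calreticulin, had 0.47 ± 0.19 after CCl4 (adjusted p = 0.0946) and 0.24 ± 0.11 at PH day 3. With CCl4 replicate 1 left out, Pdia3 passed after CCl4 at an adjusted p of 0.00367.

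The paralogs Ero1l and Ero1lb encode the oxidases ERO1 alpha and ERO1 beta, which reoxidise protein disulfide isomerase. Ero1l had 13.1, 12.8 and 13.6 CPM after CCl4, against 7.27, 7.40 and 7.30 CPM after olive oil. It had 13.8, 10.4, 9.63, 10.1 and 9.10 CPM at PH day 3, against 6.80, 7.91, 7.19, 4.64 and 6.10 CPM at PH day 0. No control library reached the lowest challenged one. The fitted log2 fold change was 0.81 ± 0.23 after CCl4 (edgeR adjusted p = 0.0293) and 0.73 ± 0.23 at PH day 3 (adjusted p = 0.0305). After CCl4 the adjusted p was 0.0788 without CCl4 replicate 2, 0.0872 without CCl4 replicate 3, 0.0795 without olive oil replicate 1, 0.0731 without olive oil replicate 2 and 0.0822 without olive oil replicate 3. On PH day 3 it was 0.0533 without PH day 0 replicate 16, 0.051 without PH day 0 replicate 12, 0.0843 without PH day 0 replicate 15 and 0.107 without PH day 3 replicate 12. With no low-count filter it was 0.057 after CCl4 and 0.0638 at PH day 3.

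Ero1lb went the other way after CCl4, with 31.6, 34.3 and 25.8 CPM in CCl4 livers, against 38.6, 46.3 and 49.2 CPM in olive oil livers. Its log2 fold change was -0.57 ± 0.17 (edgeR adjusted p = 0.0337), and the adjusted p was 0.0514 without CCl4 replicate 2, 0.11 without CCl4 replicate 3, 0.0942 without olive oil replicate 2 and 0.123 without olive oil replicate 3. It was also lost with library size scaling (0.675) and in DESeq2 (0.0565). For PH day 3 Ero1lb had 37.8 to 65.9 CPM, against 36.5 to 51.9 CPM at PH day 0 (0.14 ± 0.14, adjusted p = 0.534). Its difference between the responses was -0.69 ± 0.23 (adjusted p = 0.082), and 0.0357 without PH day 3 replicate 12.

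**Figure D3:**
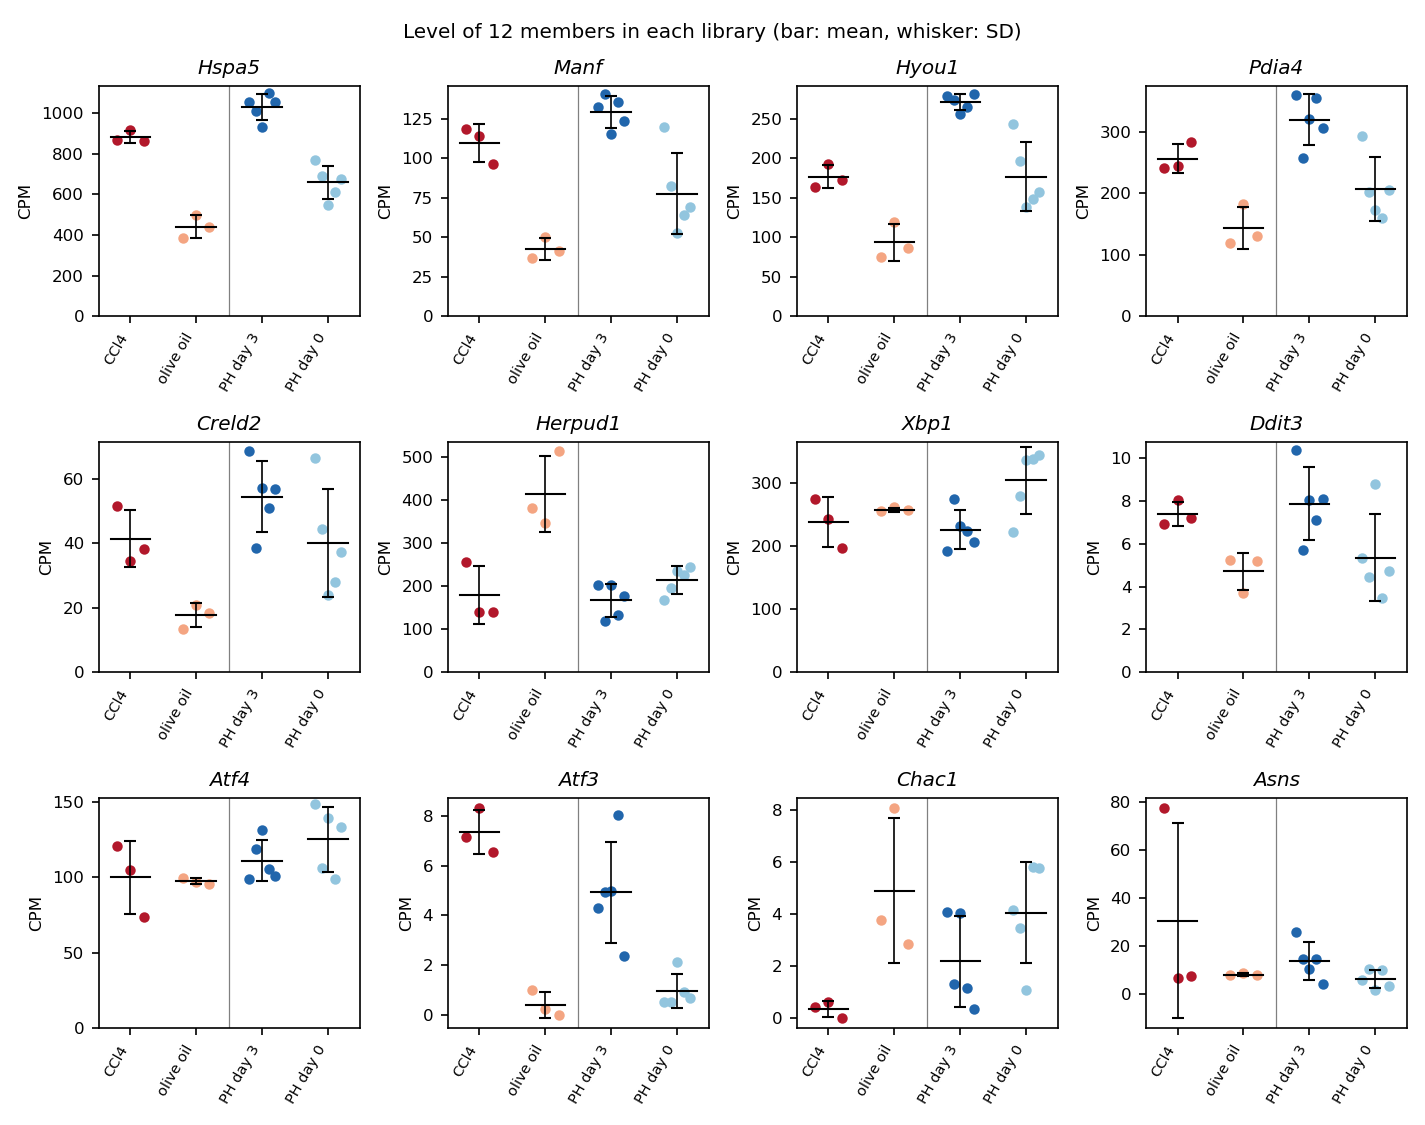
CPM (y axis, linear) of 12 members in each library, by group (x axis); points are libraries, bars the mean and whiskers the SD (n = 3 for CCl4 and olive oil, n = 5 for PH day 3 and PH day 0). Hspa5, Hyou1 and Atf3 are higher in every challenged library than in any control of the same experiment, and 1 CCl4 library carries Asns at 77.5 CPM.

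ERAD genes, which send misfolded proteins back to the cytosol for degradation, did not move as 1 group. After CCl4, 0 of 6 rose and 2 fell, Herpud1 and Derl3. After partial hepatectomy 2 of 5 tested rose, Syvn1 and Edem1, and 0 fell. The medians of the log2 fold change were -0.03 after CCl4 and 0.15 at PH day 3. At an unadjusted p under 0.05, a threshold at which all genes were not counted, the same 2 passed after CCl4. DESeq2 gave 0 higher and 2 lower. The calls after CCl4 became 0 higher and 0 lower without olive oil replicate 3, 0 higher and 1 lower without any of CCl4 replicates 1, 2 and 3, or either of olive oil replicates 1 and 2 and with no low-count filter, and 1 higher and 1 lower with library size scaling. 3 days after hepatectomy they were 1 higher and 0 lower without PH day 0 replicate 16, or PH day 3 replicate 12, and 2 higher and 1 lower with no low-count filter.

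Herpud1 encodes HERP, which organises the HRD1 ubiquitin ligase complex. It had 257, 141 and 140.5 CPM in CCl4 livers, against 381, 347 and 515 CPM in olive oil livers. The groups did not overlap, and CCl4 replicate 1 was the highest of the CCl4 libraries. The log2 fold change was -1.23 ± 0.27 (edgeR adjusted p = 0.0106), and -1.58 without CCl4 replicate 1 (adjusted p = 8.7e-06). The adjusted p was 0.0597 without olive oil replicate 3. 3 days after PH Herpud1 had 204, 120.1, 202, 134 and 178 CPM, against 168, 196, 237, 227 and 244 CPM at PH day 0, with overlap (-0.33 ± 0.16, adjusted p = 0.199). The difference of its responses was -0.87 ± 0.32 (adjusted p = 0.14), and passed without CCl4 replicate 1 (adjusted p = 0.0146). Herpud1 was the only 1 of the 31 members searched with both an ERSE-II and a CARE core in its promoter window.

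Syvn1 encodes HRD1 itself, the ubiquitin ligase at the core of ERAD. PH day 3 livers had 136, 108, 126, 105 and 112 CPM, against 108, 89.0, 101, 92.5 and 69.1 CPM in PH day 0 livers, with overlap between replicate 15 at day 3 and replicate 12 at day 0. This gave a log2 fold change of 0.37 ± 0.11 (edgeR adjusted p = 0.019), with an adjusted p of 0.0645 without PH day 0 replicate 16 and 0.0672 without PH day 3 replicate 12. After CCl4 it had 73.1, 67.2 and 69.3 CPM, against 71.0, 65.7 and 62.7 CPM after olive oil (0.05 ± 0.13, adjusted p = 0.837). Edem1, which hands mannose-trimmed glycoproteins to the degradation machinery, had 204, 220.3, 239.8, 239 and 188 CPM at PH day 3, against 192, 142, 142, 147 and 150.1 CPM at PH day 0. Only PH day 0 replicate 12 reached into the day 3 range. Its fitted log2 fold change was 0.52 ± 0.10 (adjusted p = 0.000486), and 0.15 ± 0.15 after CCl4 (adjusted p = 0.524). Sel1l, the adaptor of HRD1, and Derl1, a derlin of the channel, did not pass in either comparison, with log2 fold changes from -0.11 (Sel1l after CCl4) to 0.17 (Derl1 after CCl4).

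Derl3, a derlin known for high levels in secretory cells, was a low-count member and is named after its values were seen. It had 2.95, 2.35 and 2.79 CPM in CCl4 livers, against 5.02, 5.44 and 7.54 CPM in olive oil livers, which is 14, 19 and 17 reads against 20, 25 and 32 reads. The fitted log2 fold change was -1.18 ± 0.38 (edgeR adjusted p = 0.0453), and the call was lost without each of the 6 libraries in turn, at adjusted p of 0.0513 without CCl4 replicate 1, 0.141 without CCl4 replicate 2, 0.107 without CCl4 replicate 3, 0.0702 without olive oil replicate 1, 0.0815 without olive oil replicate 2 and 0.164 without olive oil replicate 3. It was also lost with library size scaling (0.188) and with no low-count filter (0.0804). Plasma cells and B cells are another known source of Derl3. Their 10 markers summed to 6.53 to 9.66 CPM in CCl4 livers, against 9.66 to 16.3 CPM in olive oil livers, Tnfrsf17 was at 0 in all 16 libraries, and 1 of 2 markers tested fell, Igkc (log2 fold change -1.78 ± 0.45, adjusted p = 0.0173), a call lost without either of olive oil replicates 1 and 2 (adjusted p up to 0.0697 over its alternatives). The other marker tested had a log2 fold change above 0 and did not pass. The part of plasma cells and B cells in the Derl3 result was not tested. At PH day 3 Derl3 had 2.04, 0.259, 2.80, 2.07 and 0.674 CPM, against 3.60, 2.72, 2.13, 1.85 and 9.49 CPM at PH day 0, and did not pass with no filter on low counts (adjusted p = 0.0696).

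Sensors and transcription factors start and carry out the response to misfolded protein. After CCl4, 1 of 7 rose, Atf3, and 0 fell. In PH day 3 livers 1 of 6 tested rose, Eif2ak3, and 1 fell, Xbp1. After CCl4 the calls became 1 higher and 1 lower with no low-count filter, and 3 higher and 0 lower with library size scaling. After hepatectomy they were 0 higher and 1 lower without PH day 3 replicate 12, 1 higher and 0 lower without PH day 0 replicate 16 and with library size scaling, 1 higher and 2 lower without either of PH day 0 replicates 12 and 13, 2 higher and 0 lower without either of PH day 0 replicates 14 and 15, or PH day 3 replicate 16, 2 higher and 1 lower without PH day 3 replicate 14, and 2 higher and 2 lower with no low-count filter. The members behind these counts changed. Atf3, untested in the full PH fit, was called higher in the 8 fits with 1 library left out that tested it. It entered those fits only through PH day 3 libraries, so these calls are a description. Without PH day 0 replicate 12, 13 or 16, the 1 higher was Atf3 and Eif2ak3 lost its call. Without PH day 3 replicate 12, the 1 lower was Ern1 and Xbp1 lost its call.

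Xbp1 encodes the transcription factor whose mRNA IRE1 splices. It had 275, 242 and 196 CPM in CCl4 livers, against 255, 261 and 256 CPM in olive oil livers. On PH day 3 it had 192, 275, 231, 224 and 207 CPM, against 223, 279, 336, 337 and 345 CPM at PH day 0, with overlap. The log2 fold change was -0.14 ± 0.18 after CCl4 (edgeR adjusted p = 0.614) and -0.41 ± 0.12 at PH day 3 (adjusted p = 0.0217). The call at PH day 3 was near the threshold: the adjusted p was 0.0566 without PH day 0 replicate 16, 0.0568 without PH day 0 replicate 14, 0.0566 without PH day 0 replicate 15, 0.0601 without PH day 3 replicate 12 and 0.0623 without PH day 3 replicate 16. With library size scaling it was 0.149. The log2 fold change stayed between -0.51 and -0.35 with each library left out in turn. Total Xbp1 mRNA passed upward in neither comparison.

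Ern1, encoding IRE1 alpha, had 47.2, 82.6 and 74.7 CPM after CCl4, against 88.0, 103 and 87.6 CPM after olive oil. It had 96.7, 69.0, 94.4, 79.4 and 89.4 CPM at PH day 3, against 89.2, 99.4, 116, 117 and 153 CPM at PH day 0. All 3 CCl4 libraries were below all olive oil libraries, while the PH groups overlapped. Neither comparison passed (-0.47 ± 0.19, edgeR adjusted p = 0.108, and -0.40 ± 0.14, adjusted p = 0.0507). The second passed without PH day 0 replicate 12 (0.00832), PH day 0 replicate 13 (0.0408) or PH day 3 replicate 12 (0.0446). With no low-count filter both passed, at adjusted p of 0.035 after CCl4 and 0.00121 at PH day 3. With library size scaling the log2 fold change after CCl4 was 0.02 (adjusted p = 0.967).

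Eif2ak3, encoding PERK, had 34.9, 25.2, 17.4, 16.1 and 21.6 CPM at PH day 3, against 12.5, 15.1, 18.9, 16.2 and 13.2 CPM at PH day 0. Replicates 12, 13 and 16 at day 3 were above all PH day 0 libraries, and replicates 14 and 15 were within their range. Its log2 fold change was 0.64 ± 0.20 (edgeR adjusted p = 0.0276), and the adjusted p was 0.0597 without PH day 0 replicate 16, 0.0763 without PH day 0 replicate 12, 0.0525 without PH day 0 replicate 13, 0.143 without PH day 3 replicate 12 and 0.0599 without PH day 3 replicate 13. After CCl4 it had 16.8, 21.7 and 12.6 CPM, against 10.8, 14.8 and 12.7 CPM after olive oil (0.39 ± 0.25, adjusted p = 0.293). Atf6, encoding the third sensor, had 64.9, 55.3 and 50.9 CPM after CCl4, against 54.7, 77.2 and 75.1 CPM after olive oil (-0.30 ± 0.17, adjusted p = 0.231). For PH day 3 it had 63.4, 71.1, 76.7, 73.6 and 79.2 CPM, against 52.1, 68.5, 63.7, 80.4 and 61.0 CPM at PH day 0 (0.18 ± 0.11, adjusted p = 0.29).

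Atf4, the central factor of the integrated stress response, is regulated mainly in translation. It had 121, 105 and 73.8 CPM after CCl4, against 99.3, 97.2 and 95.4 CPM after olive oil. After partial hepatectomy it had 98.7, 119, 132, 106 and 101 CPM, against 149, 106, 139, 98.7 and 133 CPM at PH day 0. The groups overlapped in both experiments, and the log2 fold changes were 0.01 ± 0.18 (edgeR adjusted p = 0.964) and -0.15 ± 0.11 (adjusted p = 0.406). Ddit3 encodes CHOP, a pro-apoptotic factor downstream of PERK. Its CCl4 libraries had 6.95, 8.05 and 7.22 CPM, against 5.27, 3.70 and 5.18 CPM in olive oil, without overlap. PH day 3 livers had 10.4, 5.71, 8.08, 7.13 and 8.09 CPM, against 5.33, 4.45, 8.79, 3.48 and 4.74 CPM at PH day 0, with overlap. Neither difference passed (0.63 ± 0.31, adjusted p = 0.177, and 0.58 ± 0.29, adjusted p = 0.177). Of the Ddit3 exon bases, 6.13% are shared with a second gene ID that had 0 reads.

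Atf3, a stress-inducible repressor and one of the CARE genes shown above, is named after its values were seen because its mean level is low. It had 7.16, 8.30 and 6.56 CPM in CCl4 livers, against 1.00, 0.218 and 0 CPM in olive oil livers. In reads this is 34, 67 and 40, against 4, 1 and 0. It entered the test only through the CCl4 libraries, so its call is a description of a gene near the detection floor in olive oil. This gave a log2 fold change of 4.12 ± 0.67 (edgeR adjusted p = 0.00192). 3 days after hepatectomy it had 4.30, 4.93, 4.97, 8.05 and 2.36 CPM, against 0.533, 0.494, 2.13, 0.927 and 0.678 CPM at PH day 0, and these groups did not overlap either. It was below the low-count filter in that comparison. With no filter its log2 fold change was 2.39 ± 0.50 (adjusted p = 4.9e-05), and in the 8 fits with 1 library left out in which it passed the filter the adjusted p was 0.000211 to 0.0028. Its PH day 0 libraries held 20 reads in all, and none reached the filter level. It entered those fits only through PH day 3 libraries, so their values are a description. Atf3 is also known as an immediate early gene in many tissues.

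Effectors of the integrated stress response act on translation, amino acid supply and signalling. After CCl4, 0 of 5 rose and 1 fell, Chac1. 3 days after PH 0 of 5 rose and 1 fell, Trib3. Both are low-count genes named after their values were seen. At an unadjusted p under 0.05, a threshold at which all genes were not counted, edgeR gave 1 of 5 after CCl4 and 2 of 5 at PH day 3. DESeq2 called 0 higher in either. Other settings moved the CCl4 calls to 0 higher and 2 lower without CCl4 replicate 1. At PH day 3 they were 0 higher and 0 lower without any of PH day 0 replicates 12, 14 and 16, or PH day 3 replicate 15 and with library size scaling, and 1 higher and 0 lower without PH day 3 replicate 16.

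Chac1 encodes a glutathione-degrading enzyme and a known ATF4 and CHOP target. It had 2, 5 and 0 reads in CCl4 libraries, against 15, 37 and 12 reads in olive oil libraries, which is 0.421, 0.62 and 0 CPM against 3.76, 8.05 and 2.83 CPM. It entered the test only through the olive oil libraries, so its call is a description of a gene near the detection floor in CCl4 livers. The fitted log2 fold change was -3.70 ± 0.76 (edgeR adjusted p = 0.00668). In PH day 3 livers it had 4.08, 1.30, 4.04, 1.15 and 0.337 CPM, against 4.13, 3.46, 1.07, 5.79 and 5.76 CPM at PH day 0 (-0.83 ± 0.50, adjusted p = 0.284). The difference of the responses was -2.82 ± 1.00 (adjusted p = 0.108).

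Trib3 encodes a pseudokinase that is an ATF4 and CHOP target and dampens AKT signalling. PH day 3 livers had 3.17, 3.11, 3.42, 1.61 and 0.337 CPM, against 7.60, 3.46, 6.66, 3.01 and 9.83 CPM in PH day 0 livers, with overlap. The log2 fold change was -1.33 ± 0.43 (edgeR adjusted p = 0.0327), and the adjusted p was 0.0924 without PH day 0 replicate 16, 0.0813 without PH day 0 replicate 12, 0.0632 without PH day 0 replicate 14, 0.086 without PH day 3 replicate 15 and 0.0733 without PH day 3 replicate 16. With library size scaling it was 0.0515. After CCl4 Trib3 had 7.58, 2.97 and 3.77 CPM, against 6.77, 5.00 and 12.2 CPM after olive oil (-0.80 ± 0.46, adjusted p = 0.244), and it passed without CCl4 replicate 1 (adjusted p = 0.0441).

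Asns encodes asparagine synthetase, the classic amino acid response gene. It had 77.5, 6.81 and 7.71 CPM in CCl4 livers, against 7.78, 8.92 and 7.77 CPM in olive oil livers. Only CCl4 replicate 1 was above the controls. The log2 fold change of 1.86 ± 1.21 (edgeR adjusted p = 0.351) became -0.20 without that library (adjusted p = 0.683). The same library was also the highest CCl4 library for other genes, chosen after their values were seen. Ddit4, an mTOR inhibitor, had 34.5, 4.09 and 3.61 CPM in CCl4 livers, against 6.52, 8.27 and 4.95 CPM in olive oil livers. Sesn2, a stress-inducible sestrin, had 20.4, 7.43 and 6.40 CPM in CCl4 livers, against 8.53, 9.14 and 8.72 CPM in olive oil livers. Tat, a hepatocyte enzyme of tyrosine breakdown, had 2640.4, 318 and 371 CPM in CCl4 livers, against 978, 1379 and 1252 CPM in olive oil livers. What set this library apart was not tested. After hepatectomy Asns had 26.0, 14.5, 10.6, 14.5 and 4.05 CPM, against 6.00, 10.4, 1.86, 9.97 and 3.39 CPM at PH day 0, with overlap (1.16 ± 0.51, adjusted p = 0.164), and passed without PH day 3 replicate 16 (0.0452). Sesn3, encoding a sestrin, and Ppp1r15a, encoding the GADD34 subunit that restores eIF2 alpha, had log2 fold changes between -0.13 (Ppp1r15a after CCl4) and 0.17 (Sesn3 at PH day 3) and did not pass.

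Levels between members were compared as CPM per kilobase of exon, averaged over all 16 libraries. By that mean P4hb was highest at 569, followed by Calr at 346, Hsp90b1 at 238, Hspa5 at 183 and Pdia3 at 179. The order differed between groups, and in olive oil livers Herpud1, at 178 ± 38.2, lay above Hsp90b1 at 153 ± 13.7 (SD, n = 3 each), although their spreads overlapped. Hspa5 and Pdia3 changed places: Hspa5 was at 243 ± 14.8 CPM per kilobase at PH day 3 and Pdia3 at 199 ± 21.9 (SD, n = 5 each), while in olive oil livers Hspa5 was at 104 ± 13.6 and Pdia3 at 140.0 ± 3.56 (SD, n = 3 each). By the mean over all 16 libraries the sensors Ern1 (11.4) and Atf6 (7.23) were above Eif2ak3 (2.91). By the same mean the lowest members were Sesn3, Chac1, Ero1l, Derl3 and Atf3, all under 2 CPM per kilobase. Within groups this differed: in CCl4 livers Atf3 was at 3.41 ± 0.41 and Eif2ak3 at 2.83 ± 0.751, and in olive oil livers Chac1 was at 2.98 ± 1.70, Derl3 at 3.01 ± 0.678 and Eif2ak3 at 2.12 ± 0.333 (SD, n = 3 each). Summed over the 11 chaperones, the level was 1078 ± 8.65 CPM per kilobase in CCl4 livers and 714 ± 71.1 in olive oil livers (SD, n = 3 each). It was 1241 ± 111 in PH day 3 livers and 1002 ± 182 in PH day 0 livers (SD, n = 5 each). For the 6 disulfide enzymes it was 1068 ± 50.1 in CCl4 livers and 782 ± 41.5 in olive oil livers, and 1085 ± 111 at PH day 3 and 844 ± 126 at PH day 0. The ERAD sum was 168 ± 35.1 in CCl4 livers and 263 ± 39.1 in olive oil livers, of which Herpud1 alone made up 77.0 ± 28.8 and 178 ± 38.2.

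**Figure D4:**
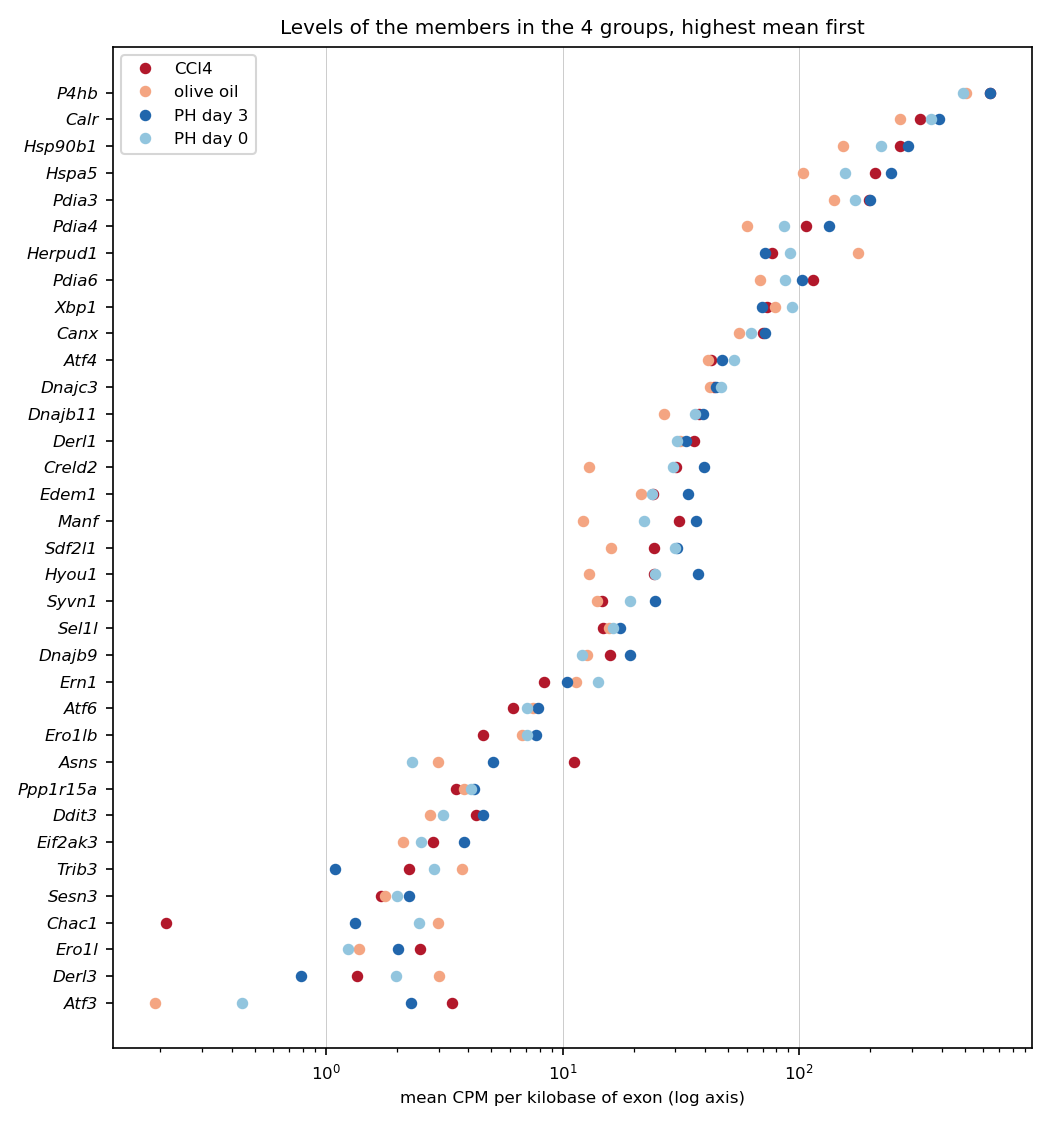
Mean CPM per kilobase of exon (x axis, log scale) of each member (y axis, highest overall mean first) in CCl4 and olive oil livers (n = 3 each) and in PH day 3 and PH day 0 livers (n = 5 each). Levels span from P4hb, at 569 over all libraries, to Atf3 at 1.53.

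The calls of members with and without an ERSE in the promoter window are given side by side, with no test. After CCl4, 4 of 10 with ERSE rose and 2 fell, and 3 of 21 without rose and 2 fell. On PH day 3 2 of 9 tested with ERSE rose and 0 fell, and 6 of 20 tested without rose and 2 fell. The medians of the log2 fold change were 0.29 with and 0.30 without ERSE after CCl4, and 0.26 and 0.15 at PH day 3.

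Other genes of the same pathways were counted from 9 lists. Beside these counts, 11.3% of all genes tested were called higher and 11.6% lower after CCl4. At PH day 3 the shares were 9.73% and 8.01%. The genes of the translocon, signal peptidase and oligosaccharyltransferase, which bring nascent proteins into the ER and glycosylate them, rose in 17 of 23 tested after CCl4 and in 13 of 23 at PH day 3, and 0 fell in either. Their median log2 fold change was 0.65 after CCl4 and 0.45 at PH day 3. The calls after CCl4 became 7 higher and 0 lower without olive oil replicate 3, 8 higher and 0 lower without olive oil replicate 1, and 10 higher and 0 lower without CCl4 replicate 2. Without CCl4 replicate 1 they were 18 and 0. Srprb, a subunit of the signal recognition particle receptor, averaged 25.7 ± 1.30 CPM in CCl4 livers and 11.7 ± 0.454 CPM in olive oil livers (SD, n = 3 each), a log2 fold change of 1.11 ± 0.18 (edgeR adjusted p = 0.0018). Ssr2, a translocon-associated protein, had 0.80 ± 0.13 (adjusted p = 0.00204). For PH day 3 Ostc, an oligosaccharyltransferase subunit, averaged 90.2 ± 5.05 CPM, against 41.5 ± 8.35 CPM at PH day 0 (SD, n = 5 each), a log2 fold change of 1.13 ± 0.12 (adjusted p = 1.99e-07). Ssr3, another translocon-associated protein, had 0.66 ± 0.09 (adjusted p = 1e-05).

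Further ER folding enzymes rose in 4 and fell in 1 of 17 after CCl4, and rose in 6 of 17 at PH day 3. Dnajc10, a disulfide reductase, had a log2 fold change of 1.58 ± 0.19 after CCl4 (edgeR adjusted p = 0.000419), and its response was higher after CCl4 than after hepatectomy by 0.98 ± 0.23 (adjusted p = 0.0105). Mlec, which encodes the lectin malectin, had 1.03 ± 0.19 after CCl4 (adjusted p = 0.00327) and 1.01 ± 0.09 at PH day 3 (adjusted p = 3.41e-08). Txndc5, a thioredoxin domain disulfide isomerase, had 0.79 ± 0.09 at PH day 3 (adjusted p = 1.51e-06). The calls of this list after CCl4 became 2 higher and 0 lower without olive oil replicate 3, 3 higher and 0 lower without CCl4 replicate 2, or olive oil replicate 1, 4 higher and 0 lower without olive oil replicate 2, 7 higher and 1 lower without CCl4 replicate 1, and 10 higher and 0 lower with library size scaling. After partial hepatectomy they were 10 higher and 0 lower with library size scaling.

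Other ERAD genes were split, with 2 of 18 higher and 2 lower in each comparison, near the shares of all genes called. After CCl4 the calls became 0 higher and 0 lower without either of olive oil replicates 1 and 2, 1 higher and 1 lower without either of CCl4 replicates 2 and 3, 1 higher and 2 lower without olive oil replicate 3, 2 higher and 4 lower without CCl4 replicate 1, and 5 higher and 0 lower with library size scaling. 3 days after hepatectomy they were 0 higher and 2 lower without PH day 3 replicate 15, 1 higher and 2 lower without any of PH day 0 replicates 13, 14 and 16, or PH day 3 replicate 13, and 3 higher and 0 lower with library size scaling. Derl2, another derlin, had -0.36 ± 0.10 at PH day 3 (adjusted p = 0.0102) and -0.60 ± 0.17 after CCl4 (adjusted p = 0.0265), a call lost without either of CCl4 replicates 2 and 3, or either of olive oil replicates 1 and 2 (adjusted p up to 0.615 over its alternatives). Rnf5, an ER ubiquitin ligase, had -0.81 ± 0.20 after CCl4 (adjusted p = 0.0151), a call lost without either of olive oil replicates 1 and 2 (adjusted p up to 0.386 over its alternatives), and Ube2g2, an ERAD ubiquitin-conjugating enzyme, had 0.94 ± 0.21 (adjusted p = 0.0103), a call lost without either of olive oil replicates 1 and 2 (adjusted p up to 0.0581 over its alternatives). 3 days after PH Os9, a lectin of ERAD, had -0.33 ± 0.09 (adjusted p = 0.0126). Derl2, Rnf5 and Os9 each lost the call with library size scaling.

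Among 22 further sensors and regulators, 1 rose and 1 fell in each comparison, of 20 tested after CCl4 and 19 at PH day 3. Other settings moved the CCl4 calls to 0 higher and 0 lower without either of olive oil replicates 1 and 3, 1 higher and 0 lower without CCl4 replicate 2, 2 higher and 0 lower without CCl4 replicate 3, 2 higher and 3 lower without CCl4 replicate 1, and 6 higher and 0 lower with library size scaling. At PH day 3 they were 1 higher and 0 lower without either of PH day 0 replicates 13 and 16, or any of PH day 3 replicates 12, 13 and 15, and 2 higher and 0 lower with library size scaling. Creb3l2, an ER-anchored transcription factor that is cleaved like ATF6, had 0.85 ± 0.24 after CCl4 (edgeR adjusted p = 0.0275), a call lost without either of olive oil replicates 1 and 3 (adjusted p up to 0.125 over its alternatives). In PH day 3 livers it had 0.81 ± 0.15 (adjusted p = 0.000323). Eif2ak1, which encodes the heme-regulated eIF2 alpha kinase, had -0.68 ± 0.19 after CCl4 (adjusted p = 0.0252), a call lost without either of CCl4 replicates 2 and 3, or either of olive oil replicates 1 and 3 (adjusted p up to 0.406 over its alternatives). After hepatectomy it had -0.42 ± 0.13 (adjusted p = 0.026), a call lost without any of PH day 0 replicates 12, 13 and 16, or any of PH day 3 replicates 12, 13 and 15 (adjusted p up to 0.136 over its alternatives). Both of its calls were also lost with library size scaling.

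Known ATF4 targets of amino acid metabolism rose in 5 and fell in 1 of 11 tested after CCl4, and rose in 4 of 10 tested at PH day 3, of 17 listed. The calls after CCl4 became 5 higher and 2 lower without CCl4 replicate 1. Psat1, of serine synthesis, averaged 12.8 ± 5.56 CPM in CCl4 livers and 0.542 ± 0.0972 CPM in olive oil livers (SD, n = 3 each), a log2 fold change of 4.47 ± 0.50 (edgeR adjusted p = 0.000295). It was at 19.2, 10.7 and 8.70 CPM in the CCl4 libraries. Psat1, at 2 to 3 reads in olive oil libraries, and Mthfd2, a mitochondrial folate enzyme at 5 to 8 reads there, entered the test only through the CCl4 libraries, so their values are a description. Both are among the 5 counted as risen. Psph, of the same pathway, had 1.80 ± 0.26 after CCl4 (adjusted p = 0.0011). Cth, of cysteine synthesis, moved in opposite directions. It averaged 146 ± 32.7 CPM in CCl4 livers and 305 ± 38.3 CPM in olive oil livers (SD, n = 3 each), and 534 ± 57.3 CPM at PH day 3 and 309 ± 61.5 CPM at PH day 0 (SD, n = 5 each). Its fitted log2 fold change was -1.09 ± 0.20 after CCl4 (adjusted p = 0.00409) and 0.81 ± 0.11 at PH day 3 (adjusted p = 1.67e-05), and the difference of the responses was -1.87 ± 0.22 (adjusted p = 1.79e-05). Pck2, the mitochondrial phosphoenolpyruvate carboxykinase, had 1.81 ± 0.26 at PH day 3 (adjusted p = 1.95e-05).

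ATF4 targets of signalling rose in 1 and fell in 1 of 7 tested after CCl4, and fell in 1 of 5 tested at PH day 3, of 11 listed. After CCl4 the calls became 0 higher and 1 lower without CCl4 replicate 2. Vegfa, the endothelial growth factor, fell in both (-1.01 ± 0.18, edgeR adjusted p = 0.00286, and -0.63 ± 0.10, adjusted p = 6.67e-05). Tnfrsf10b, a death receptor, averaged 3.25 ± 1.07 CPM in CCl4 livers and 0.0725 ± 0.126 CPM in olive oil livers (SD, n = 3 each). That gene was the 1 counted as risen after CCl4. Tnfrsf10b, at 0 to 1 reads in olive oil libraries, and Nupr1, a stress-inducible chromatin factor of 2 lists at 1 to 9 reads, entered the test only through the CCl4 libraries, so their values are a description. Aminoacyl-tRNA synthetases rose in 2 and fell in 1 of 18 after CCl4 and rose in 1 of 18 at PH day 3. Other settings moved the CCl4 calls to 1 higher and 0 lower without either of CCl4 replicates 2 and 3, or olive oil replicate 3, 2 higher and 0 lower without either of olive oil replicates 1 and 2, and 10 higher and 0 lower with library size scaling. On PH day 3 they were 1 higher and 1 lower without either of PH day 3 replicates 13 and 15, 2 higher and 0 lower without PH day 0 replicate 12, and 3 higher and 0 lower with library size scaling. Vars, for valine, had 1.39 ± 0.17 after CCl4 (adjusted p = 0.00039) and 0.77 ± 0.11 at PH day 3 (adjusted p = 2.4e-05), and Tars, for threonine, had 0.66 ± 0.18 after CCl4 (adjusted p = 0.0275), a call lost without either of CCl4 replicates 2 and 3, or either of olive oil replicates 2 and 3 (adjusted p up to 0.138 over its alternatives). The response of Vars was higher after CCl4 than after hepatectomy by 0.65 ± 0.19 (adjusted p = 0.0472), a call lost without either of CCl4 replicates 2 and 3, or either of olive oil replicates 1 and 3, or any of PH day 0 replicates 13, 15 and 16, or any of PH day 3 replicates 12, 13, 14 and 16 (adjusted p up to 0.165 over its alternatives). That of Tars was higher by 0.78 ± 0.19 (adjusted p = 0.0158), a call lost without CCl4 replicate 3, or either of olive oil replicates 2 and 3 (adjusted p up to 0.0754 over its alternatives).

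Cytosolic heat shock genes, a folding response outside the ER, rose in 0 and fell in 1 of 10 tested after CCl4 and rose in 2 of 10 at PH day 3, of 11 listed. The calls after CCl4 became 0 higher and 0 lower without CCl4 replicate 2, or olive oil replicate 1, 1 higher and 0 lower without olive oil replicate 3, 2 higher and 1 lower without CCl4 replicate 1, and 4 higher and 1 lower with library size scaling. For PH day 3 they were 0 higher and 0 lower without either of PH day 3 replicates 12 and 16, and 1 higher and 0 lower without any of PH day 0 replicates 13, 14, 15 and 16, or PH day 3 replicate 15. Hspb1, a small heat shock protein, had -1.94 ± 0.49 after CCl4 (edgeR adjusted p = 0.0175), a call lost without CCl4 replicate 2, or either of olive oil replicates 1 and 3 (adjusted p up to 0.0795 over its alternatives). Bag3, a co-chaperone, had 0.55 ± 0.16 at PH day 3 (adjusted p = 0.0239), a call lost without PH day 0 replicate 13, or either of PH day 3 replicates 12 and 16 (adjusted p up to 0.0743 over its alternatives). Hsp90aa1, the inducible cytosolic Hsp90, had 0.47 ± 0.16 (adjusted p = 0.0411), a call lost without any of PH day 0 replicates 14, 15 and 16, or any of PH day 3 replicates 12, 13, 15 and 16 (adjusted p up to 0.128 over its alternatives).

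Immediate early genes rose in 5 and fell in 1 of 10 tested after CCl4, and rose in 2 and fell in 1 of 9 tested at PH day 3, of 11 listed. After CCl4 the calls became 4 higher and 0 lower without CCl4 replicate 2, or olive oil replicate 2, 5 higher and 0 lower without CCl4 replicate 3, or either of olive oil replicates 1 and 3, and 7 higher and 0 lower with library size scaling. After partial hepatectomy they were 2 higher and 0 lower without PH day 0 replicate 14, or any of PH day 3 replicates 12, 13, 15 and 16 and with library size scaling, 2 higher and 2 lower without PH day 0 replicate 12, and 3 higher and 0 lower without either of PH day 0 replicates 13 and 15. Klf6 and Jun, both transcription factors of this class, had 2.49 ± 0.36 and 1.80 ± 0.32 after CCl4 (adjusted p = 0.00118 and 0.00341). Fos, a partner of Jun at 3 to 4 reads in olive oil libraries, entered the test only through the CCl4 libraries. Its value is a description, and it is among the 5 counted as risen. Ier2, another immediate early gene, was called in opposite directions. It averaged 26.6 ± 8.72 CPM in CCl4 livers and 10.97 ± 2.02 CPM in olive oil livers (SD, n = 3 each), a log2 fold change of 1.25 ± 0.28 (edgeR adjusted p = 0.00963), a call lost without olive oil replicate 2 (adjusted p up to 0.0518 over its alternatives). It averaged 12.7 ± 3.71 CPM at PH day 3 and 23.0 ± 9.07 CPM at PH day 0 (SD, n = 5 each), a log2 fold change of -0.85 ± 0.28 (adjusted p = 0.044), a call lost without any of PH day 0 replicates 13, 14 and 15, or any of PH day 3 replicates 12, 13, 15 and 16 (adjusted p up to 0.108 over its alternatives). That call was also lost with library size scaling. The difference of its responses was 2.13 ± 0.45 (adjusted p = 0.00757). Egr1, a zinc finger transcription factor, averaged 199 ± 92.6 CPM in CCl4 livers and 10.4 ± 7.72 CPM in olive oil livers (SD, n = 3 each), a log2 fold change of 4.24 ± 0.70 (adjusted p = 0.0129), a call lost without CCl4 replicate 2 (adjusted p up to 0.0521 over its alternatives). Its response was higher after CCl4 than after hepatectomy by 3.53 ± 0.80 (adjusted p = 0.0244), a call lost without CCl4 replicate 2, or either of olive oil replicates 2 and 3 (adjusted p up to 0.083 over its alternatives). Btg2, an antiproliferative gene, had 1.44 ± 0.22 at PH day 3 (adjusted p = 6.35e-05), and Klf6 had 1.32 ± 0.25 (adjusted p = 0.000479).

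**Figure D5:**
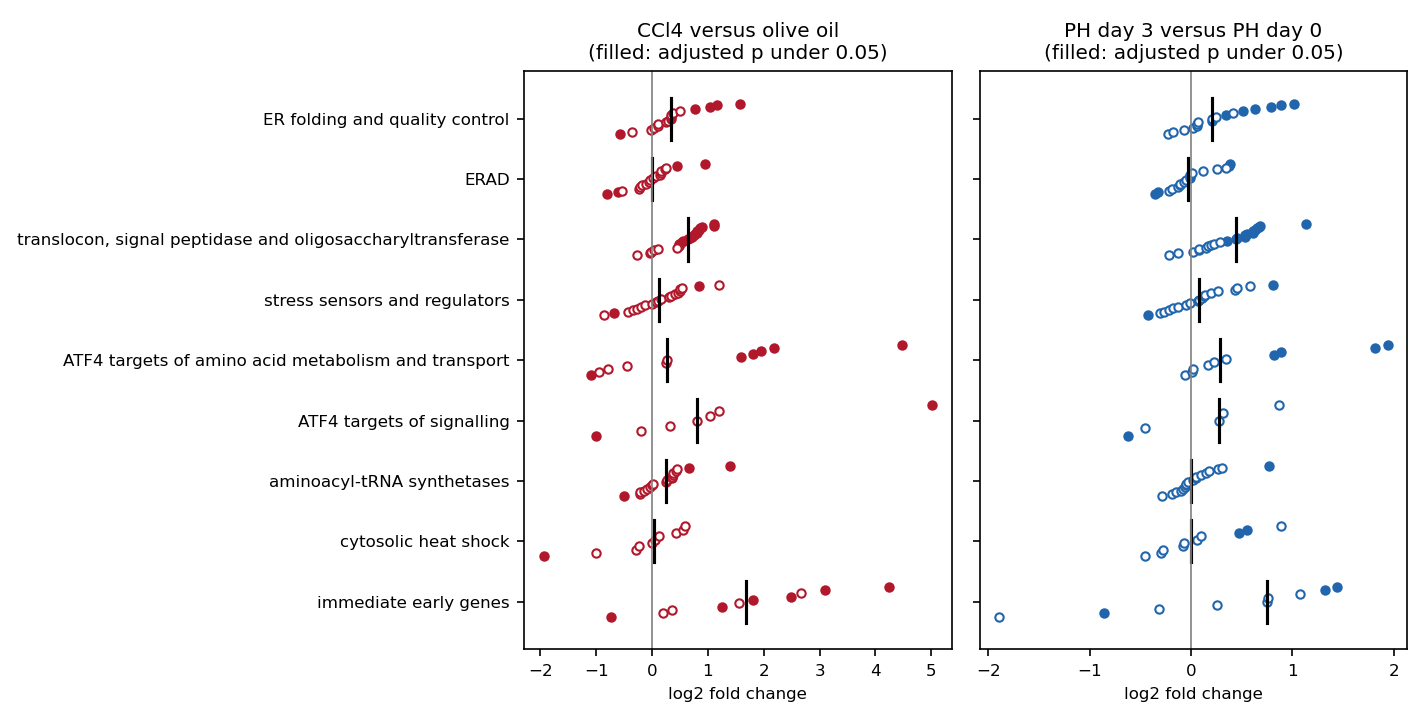
Log2 fold change (x axis) of each tested gene of the 9 pathway lists (rows) for CCl4 versus olive oil (left, red) and PH day 3 versus PH day 0 (right, blue); filled points passed adjusted p under 0.05 and black ticks are medians. The translocon, signal peptidase and oligosaccharyltransferase row lies mostly right of 0 in both panels, with medians of 0.65 and 0.45.

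Among markers of other cell types, only the stellate cell and myofibroblast list and the dividing cell list held genes called higher in both comparisons. Of all genes tested, 11.3% were called higher and 11.6% lower after CCl4, and 9.73% and 8.01% at PH day 3. Stellate cell and myofibroblast markers rose in 7 of 10 after CCl4 and 5 of 10 at PH day 3, and their sum was 448 to 1132 CPM in CCl4 livers, against 135 to 187 CPM in olive oil livers, and 255 to 819 CPM at PH day 3, against 133 to 274 CPM at PH day 0. Macrophage and monocyte markers rose in 5 and fell in 1 of 10 after CCl4 (summed CPM of 315 to 436 in CCl4 livers and 117 to 328 in olive oil livers), and 0 of 6 tested passed at PH day 3 (137 to 256 CPM, against 146 to 217 CPM at PH day 0). All 6 markers of dividing cells rose in both, with sums of 218 to 475 CPM in CCl4 livers, against 6.77 to 6.96 CPM in olive oil livers, and 88.3 to 233 CPM at PH day 3, against 2.97 to 8.81 CPM at PH day 0. Hepatocyte markers, which check the labelled tissue, were all present: their 10 genes summed to 91013 to 113877 CPM in CCl4 livers, against 100814 to 111909 CPM in olive oil livers, and to 111324 to 128411 CPM at PH day 3, against 76714 to 94558 CPM at PH day 0. Of these 10, 2 fell after CCl4, and 1 rose (Alb) and 3 fell at PH day 3. Endothelial markers rose in 1 of 7 after CCl4 (94.8 to 109 CPM in CCl4 livers and 93.8 to 103 CPM in olive oil livers) and fell in 2 of 7 at PH day 3 (105 to 171 CPM, against 147 to 181 CPM at PH day 0). Biliary markers rose in 1 of 2 tested after CCl4, Spp1 (174 to 295 CPM in CCl4 livers and 53.4 to 107 CPM in olive oil livers), and in 0 of 2 at PH day 3 (138 to 244 CPM, against 78.1 to 178 CPM at PH day 0). Neutrophil markers did not pass in the 3 tested after CCl4 (6.57 to 61.9 CPM in CCl4 livers and 1.00 to 18.7 CPM in olive oil livers), none was tested at PH day 3 (3.17 to 14.3 CPM, against 1.02 to 3.94 CPM at PH day 0), and Ly6g was at 0 in all groups but CCl4. Without CCl4 replicate 1, 8 of 10 stellate, 5 of 10 macrophage, 2 of 7 endothelial and 6 of 6 dividing cell markers rose after CCl4, and 4 of 10 hepatocyte markers fell. Of the dividing cell markers, 3 entered the CCl4 test and 4 the PH test only through the CCl4 or PH day 3 libraries, as did 3 macrophage markers after CCl4. Plasma cell and B cell markers summed to 8.05 to 22.1 CPM at PH day 3, against 10.2 to 15.1 CPM at PH day 0. The part of these cells in the chaperone, disulfide enzyme and Atf3 results was not tested.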

How the data were processed

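Total RNA of snap-frozen liver was made into Illumina mRNA libraries, per the labels' protocols. The deposited files hold raw read counts per gene, made by the authors with featureCounts 1.6.2 from the first read, counted reverse-stranded over exons of Ensembl release 95 (GRCm38), per the file headers. STAR 2.5.1 and Subread are named in the submitters' processing notes. Of 54838 gene IDs, 54723 were named from GENCODE M21.

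Counts as deposited were tested in R 4.3.3 with edgeR 4.0.16 (TMM factors, robust quasi-likelihood F test, low-count filter with a minimum count of 10 and minimum total of 15). P-values were Benjamini-Hochberg adjusted over all genes tested and called under 0.05. CCl4 and olive oil, PH day 3 and PH day 0, and the difference of the responses over all 16 libraries were 3 separate fits. Each SE was derived from the log2 fold change and its F statistic (|log2 fold change| / sqrt F). CPM used TMM factors over all 16 libraries, and levels between genes used CPM per kilobase of exon in place of the planned TPM. The fits were tested on simulated data with known changes in few genes, for CCl4 50 at 1.5-fold, 48 at 2-fold and 98 at 4-fold. Simulated calls numbered 117 for CCl4, 157 for PH day 3 and 91 for the difference, of which 12, 7 and 5 were unchanged genes. The data gave more calls in each fit, with 1279 higher and 1320 lower after CCl4. The adjusted cutoff was therefore stricter in the simulation, and the shares recovered there may understate those in the data. Of 1.5-fold changes, 4% were called for CCl4, 46% for PH day 3 and 2.04% for the difference of the responses. Of 2-fold changes it was 31.25%, 72.3% and 28.9%, and of 4-fold changes 89.8%, 98.9% and 74.2%. A member that did not pass, above all after CCl4 or in the difference, may thus still have changed. Alternatives were RLE factors, library size scaling, no filter, DESeq2 1.42.0, each library left out, and a replicate block for hepatectomy.

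Genes in the lists were chosen with earlier results of these data known. Per-library values were given for members called in both comparisons, for the hubs Hspa5, Xbp1, Atf4, Ddit3, Atf6, Ern1 and Eif2ak3, and for the 5 largest called changes in each direction with at least 5 CPM. In each pathway list the 2 genes of smallest adjusted p per comparison were named. Atf3, Chac1, Derl3, Trib3, Asns, Syvn1, P4hb, Ddit4, Sesn2 and Tat were named after their values were seen where that rule did not cover them. Mars1 was matched as Mars, and Nupr1 stands in 2 lists.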

Additional observations from a re-analysis of the deposited data

Results flagged for a closer look

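Of 70 groups of 5 libraries tested over the members, 5 held a library far from the other 4, where chance gives about 1 in 20 groups. Ero1l was at 13.81 CPM in PH day 3 replicate 12, against 9.10 to 10.4 CPM in the other PH day 3 livers. Among PH day 0 livers, Edem1 was at 192.2 CPM in replicate 12, against 141.6 to 150.1 CPM in the others. Derl3 was at 9.486 CPM in PH day 0 replicate 16, against 1.85 to 3.60 CPM. Sesn3 was at 21.68 CPM in the same library, against 31.6 to 34.4 CPM. Atf3 was at 2.131 CPM in PH day 0 replicate 14, against 0.494 to 0.927 CPM. What set these libraries apart was not tested.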

How the results depend on the processing

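The counts of members risen and fallen after CCl4 (9 and 4) and at PH day 3 (10 and 2) stayed within 1.5 times with RLE factors and with DESeq2. Library size scaling gave 19 risen and 2 fallen after CCl4, 14 risen and 0 fallen at PH day 3, 2 with a higher response after CCl4 than after hepatectomy (Pdia6 and Manf), and 12 risen in both in place of 5. It also turned the sign of 6 members after CCl4, 0 of which were called. Under the same scaling more of all genes were called higher too, 2973 after CCl4 and 1617 at PH day 3. All genes risen in both were not counted under it. With no low-count filter 4 members fell at PH day 3. With each library left out in turn, the members risen after CCl4 numbered 4 to 12 and those fallen 1 to 4. At PH day 3, 7 to 13 rose and 0 to 3 fell, and 0 to 1 had a lower response after CCl4 than after hepatectomy. The difference passed for Herpud1 without CCl4 replicate 1 and for Ero1lb without PH day 3 replicate 12. The cause was not tested. No called value changed sign in any of these settings. Each such fit has fewer libraries than the full one.

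The labels do not say whether same-numbered PH day 3 and PH day 0 libraries come from 1 animal. Their deviations from the group means correlated at -0.023 to 0.094, and not every library correlated best with its own number. A replicate block gave 11 risen and 2 fallen members. With it Hsp90b1 (adjusted p = 0.0211), Ern1 (0.0249) and Asns (0.0114) passed in edgeR, while Trib3 (0.0523) and Eif2ak3 (0.0542) did not. Depth limits Atf3, Chac1 and Derl3, which held 0 to 67 reads in the injection libraries.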
